A study of Arabidopsis thaliana with 53 samples.

Results

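The short-internode dwarf is a recessive dwarf Arabidopsis line that arose after treatment with etoposide, a drug that traps topoisomerase II on DNA and leaves breaks. Leaf RNA of 6 short-internode dwarf plants was compared here with that of 4 relatives without the phenotype, which makes 10 of the 53 plants of the series. The members were chosen by library name. The dwarf plants carry the names 34C_6 and 34C_7 and the relatives the name 34C_9, all of line 34C.

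The M1 ancestor of line 34C germinated on medium with 160 µM etoposide, was moved to soil after the treatment and was selfed, so dwarf plants and relatives share that treated ancestor. All of these plants were M3. Dwarf plants 1 to 3 belong to M2 family 34C_6, dwarf plants 4 to 6 to family 34C_7, and the relatives to family 34C_9, so phenotype and M2 family cannot be told apart. The 9 DMSO plants descend from ancestors on the solvent alone, were never on etoposide and are labelled M2, whereas the methods of the study call its DMSO controls M3. Their library names begin with C13, C23 or C4_8, so they come from more than 1 control family. The DMSO plants entered the fit as a further group, and their values stand beside the others as background. All plants grew at 22 °C with 16 h of light. Each library came from leaf of 1 plant after poly(A) selection, with strand kept.

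Total estimated counts were between 39631454 and 61035666 in dwarf plants, 29739361 and 45898897 in relatives, and 40099331 and 116654254 in DMSO plants. Relative 2 stood apart from the other plants of the line, and relative 1 less so. Over the tested genes, the log2 expression of relative 2 correlated with the dwarf plants at 0.78 to 0.841 and that of relative 1 at 0.923 to 0.938, against 0.952 to 0.974 for relatives 3 and 4 and 0.956 to 0.987 among dwarf plants. Among DMSO plants the range was 0.896 to 0.985, which holds the values of relative 1 but not those of relative 2. These are correlations across genes, which are not replicates. The main results are given both with all 4 relatives and without relatives 1 and 2, a choice that was set with the comparison. Leaf identity was checked with marker genes. The summed level of 5 mesophyll markers (RBCS1A, RCA, LHCB3, CA1, PRK) was 16200 to 30000 CPM in dwarf plants, 18500 in relative 1, 6370 in relative 2, and 21000 and 23200 in relatives 3 and 4. The shoot meristem markers STM, WUS and CLV3 were at 0 in all relatives and in 5 of 6 dwarf plants, and 6 flower and stamen markers summed to 0.788 to 3.98 CPM in dwarf plants and 0.735 to 1.2 CPM in relatives. CPM is the count scaled to the TMM-adjusted library size. In whole leaves, fewer cells of a type and less RNA per cell cannot be told apart.

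RNA polymerase III makes transfer RNAs, the 5S ribosomal RNA and other short RNAs, and NRPC1 is its largest subunit. MAF1 is a repressor of that polymerase in yeast, animals and plants, and slows it when nutrients or growth conditions are poor. The libraries hold poly(A) RNA, so the products of the polymerase were not measured here. MAF1 in this text is AT5G13240, which the RefSeq annotation notes as a repressor of polymerase III, and not the floral repressor FLM, which shares the name.

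Of 19389 genes tested, 5 (0.0258%) were called with all relatives, with 4 (0.0206%) higher and 1 (0.00516%) lower in dwarf plants. Calls needed an absolute log2 fold change over 1 and a Benjamini-Hochberg adjusted p under 0.01 in the quasi-likelihood test of edgeR, which is meant where no tool is named. The count depended on single plants. It was 25 (14 lower) without DMSO plant 2, 23 (16 lower) without relative 4, 8 without relative 2 or DMSO plant 7, 3 without dwarf plant 1, 3 or 5, and 2 without relative 1. The genes higher in dwarf plants were NRPC1, MAF1, AT1G54680 and AT1G56300, and the lower one was SULTR3;3. In the fit without relatives 1 and 2, only NRPC1 was called, 1 of 19277 genes (0.00519%).

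NRPC1 (AT5G60040, chromosome 5, 24173259 to 24183641 on TAIR10.1) was at 41, 47.9 and 50.6 CPM in dwarf plants as lowest, median and highest value. It was at 6.63, 6.42, 10.3 and 9.35 CPM in relatives 1 to 4. DMSO plants had 9.2, 11.3 and 18.4 CPM as lowest, median and highest. The lowest dwarf plant was thus far above every relative and every DMSO plant. The mean was 47.3 ± 3.69 CPM (SD, n = 6) in dwarf plants and 8.16 ± 1.94 CPM (SD, n = 4) in relatives. The difference was 2.52 ± 0.192 on the log2 scale (SE), a 5.72-fold higher level, with an edgeR adjusted p of 1.36e-06. It was 2.27 ± 0.227 without relatives 1 and 2 (adjusted p = 0.000314). The gene was called under all 33 alternatives of processing and plants that were tried, with log2 fold changes between 2.07 and 2.68.

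MAF1 (AT5G13240, chromosome 5, 4225005 to 4227717) was at 43, 51.5 and 60.1 CPM in dwarf plants as lowest, median and highest. The relatives had 17.8, 18.8, 21.9 and 20.1 CPM, and DMSO plants 17.3, 24.3 and 31.5 CPM as lowest, median and highest. All dwarf plants were above all other plants of the fit. The log2 fold change was 1.37 ± 0.157 (adjusted p = 0.000521 by edgeR), or 2.58-fold. It was 1.29 ± 0.202 without relatives 1 and 2, where the gene was no longer called (adjusted p = 0.0228), and it stayed called when any single plant was left out.

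**Figure D1:**
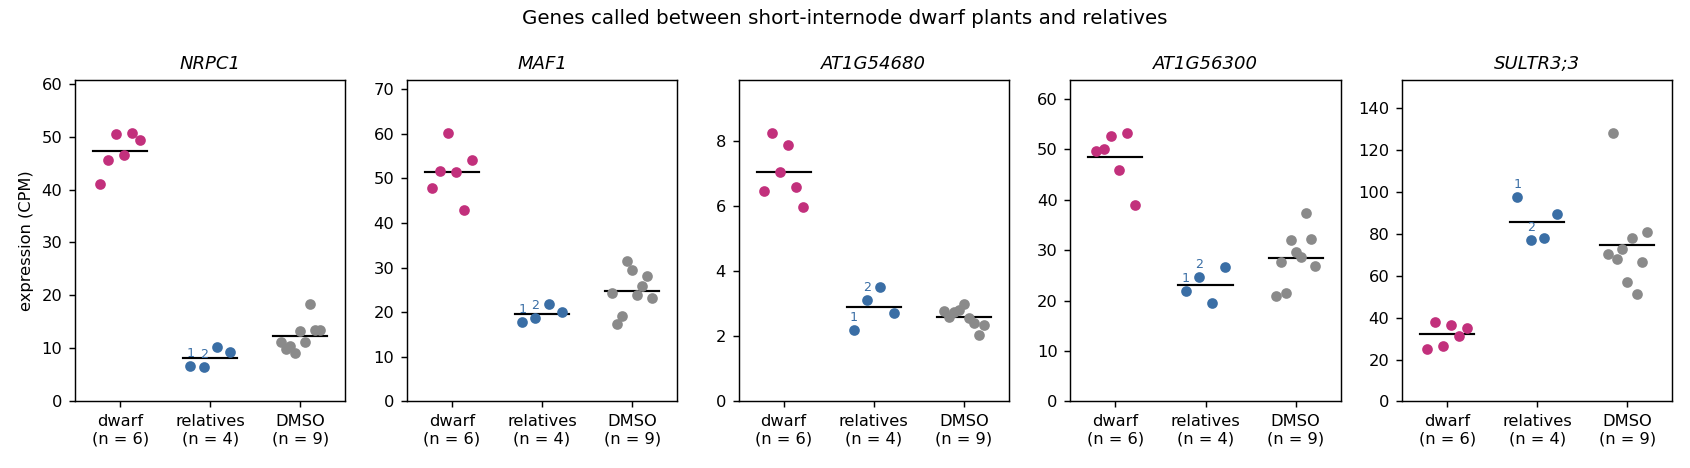
Expression in CPM (linear axis from 0) of the 5 called genes in each of 6 dwarf plants, 4 relatives and 9 DMSO plants, with a bar at each group mean. The labels 1 and 2 mark relatives 1 and 2. NRPC1 lies between 41 and 50.6 CPM in dwarf plants and does not exceed 18.4 CPM in any other plant, and dwarf plants overlap neither relatives nor DMSO plants in any of the 5 genes.

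The list of polymerase genes held 9 large subunits of the nuclear RNA polymerases and MAF1, all tested, and NRPC1 and MAF1 were its called members. NRPC2, the second-largest subunit of polymerase III, which forms the catalytic centre together with NRPC1, had 18.4, 24.8 and 27.1 CPM in dwarf plants. Its relatives' values of 17.2, 14.4, 24.9 and 20.2 CPM overlapped with these, and the log2 fold change was 0.31 ± 0.143 (adjusted p = 0.176) with all relatives and 0.09 without relatives 1 and 2. For polymerase I, which makes the large ribosomal RNAs, NRPA1 was at a log2 fold change of -0.04 and NRPA2 at 0.09. For polymerase II, which makes messenger RNAs, NRPB1 was at -0.29 and NRPB2 at -0.26. NRPD1, NRPD2 and NRPE1 belong to polymerases IV and V of plants, which act in RNA-directed DNA methylation, and were at -0.24, 0.29 and 0.29. None of these 8 subunits was called, and in each of them dwarf plants and relatives overlapped. NRPA1 and NRPD2 had the opposite sign without relatives 1 and 2, at 0.26 and -0.12. The median of the 10 genes was 0.19, against -0.03 over all genes.

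**Figure D2:**
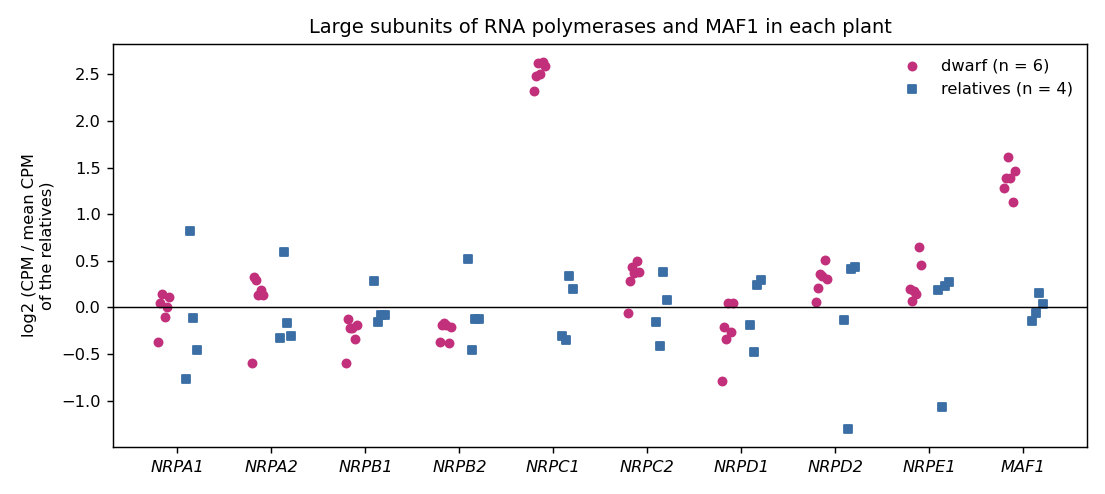
Level of 9 RNA polymerase subunits and MAF1 in each dwarf plant (circles, n = 6) and relative (squares, n = 4), as log2 of CPM over the mean CPM of the relatives. The dwarf plants stand apart from the relatives at NRPC1 and MAF1, and the points of both groups overlap at the other subunits, including NRPC2.

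The other called genes with higher values were AT1G54680 and AT1G56300. AT1G54680 (chromosome 1, 20413012 to 20414574) is annotated as a translation initiation factor 3 subunit. It had 5.99, 6.83 and 8.25 CPM in dwarf plants and 2.21, 3.12, 3.53 and 2.73 CPM in relatives, and DMSO plants ranged from 2.04 to 2.99 CPM. The groups did not overlap, and the log2 fold change was 1.26 ± 0.169 (adjusted p = 0.00241). AT1G56300 (chromosome 1, 21078023 to 21080423) encodes a protein with a DnaJ domain, which in other proteins contacts Hsp70 chaperones. It was at 39, 49.9 and 53.2 CPM in dwarf plants, at 22, 24.7, 19.5 and 26.6 CPM in relatives and at 20.9 to 37.3 CPM in DMSO plants, with a log2 fold change of 1.05 ± 0.155 (adjusted p = 0.00762). Neither was called without relatives 1 and 2 (adjusted p = 0.0351 and 0.0674), nor when relative 1 alone was left out (0.0115 and 0.017). AT1G56300 also lost its call when dwarf plant 1, 2, 3, 4 or 5, or relative 2 or 3, was left out, with adjusted p between 0.0101 and 0.0204.

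SULTR3;3 (AT1G23090, chromosome 1, 8184925 to 8189234) encodes a sulfate transporter of a group that has members in the chloroplast envelope. It was the only gene called lower. Dwarf plants had 24.8, 33.1 and 38 CPM as lowest, median and highest, relatives 97.4, 77.2, 78.1 and 89.5 CPM, and DMSO plants 51.1, 70.4 and 128 CPM as lowest, median and highest. The dwarf plants were below all relatives and all DMSO plants. The log2 fold change was -1.43 ± 0.191 (adjusted p = 0.00241), so the level in relatives was 2.7 times that in dwarf plants. It was -1.39 ± 0.233 without relatives 1 and 2, which was not called (adjusted p = 0.0351). The call was also lost without dwarf plant 1, 3 or 5 or relative 1 (adjusted p of 0.0126 to 0.0154).

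Other genes of sulfate uptake and assimilation were less uniform. Of 20 members of the list, 17 were tested, and 13 had a log2 fold change below 0, against 52.7% of all genes. SULTR3;3 alone was called by edgeR (0.0258% of all genes), and SULTR3;3 and SULTR3;5 by DESeq2 (1.72% of all genes). SULTR3;5, a transporter of the same group known from roots, had 0.373, 0.612 and 1.44 CPM in dwarf plants and 1.6, 1.71, 2.31 and 5.36 CPM in relatives (log2 fold change -1.95 ± 0.489, adjusted p = 0.036 by edgeR and 0.0059 by DESeq2). By edgeR it was -2.41 without relatives 1 and 2 (adjusted p = 0.186), and DESeq2 no longer called it there (adjusted p = 0.0277). Its groups did not overlap, but dwarf plants reached into the DMSO range of 0.73 to 4.79 CPM. APR3, which encodes an enzyme that reduces activated sulfate, was at 26.9, 93.4 and 152 CPM in dwarf plants and at 181, 230.0, 339 and 67.4 CPM in relatives, so its groups overlapped. The median of the list was -0.63 with all relatives and -0.31 without relatives 1 and 2.

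At an unadjusted p below 0.05 there were 5141 genes (26.5%), of which 1678 (8.65%) were higher and 3463 (17.9%) lower in dwarf plants. The number was 1367 (7.09%) without relatives 1 and 2. Dwarf plants and the 4 relatives did not overlap in 1498 genes (7.73%), of which 779 (4.02%) were higher and 719 (3.71%) lower. Against relatives 3 and 4 alone they did not overlap in 3371 genes (17.5%).

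Next by p among the higher genes was AT5G44260, which encodes a CCCH zinc finger protein. It was at 54.4, 61.6 and 69.2 CPM in dwarf plants, at 14.4, 3.99, 8.29 and 10.6 CPM in relatives, and at 3.1, 6.4 and 14.8 CPM in DMSO plants. All dwarf plants were thus above all others, and the log2 fold change of 2.70 ± 0.418 missed the threshold narrowly (adjusted p = 0.0101). It was 2.70 without relatives 1 and 2 (adjusted p = 0.077). ACHT5, an atypical thioredoxin of the chloroplast, had 26.8, 33 and 48.2 CPM in dwarf plants against 7.28, 6.24, 8.33 and 5.53 CPM in relatives and 3.44 to 19.6 CPM in DMSO plants (log2 fold change 2.36 ± 0.392, adjusted p = 0.0126, and 2.36 with an adjusted p of 0.212 without relatives 1 and 2). TDP1, an enzyme that removes trapped topoisomerase remnants from DNA ends, had 10.8, 11.8 and 13.3 CPM in dwarf plants and 4.44, 3.27, 4.48 and 4.17 CPM in relatives. Its log2 fold change was 1.54 ± 0.241 (adjusted p = 0.0102) and 1.47 without relatives 1 and 2 (0.141). Of the DMSO plants, 1 reached 11 CPM, within the range of the dwarf plants.

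The other uncalled higher genes of smallest p were Fes1B, named for a yeast factor that acts on Hsp70 (log2 fold change 0.96), BGLU44, a beta-glucosidase (1.03), AT5G60250, a RING finger protein (2.19), and AT1G66190, of unknown function (1.02). Their adjusted p values lay between 0.0126 and 0.0199, and in each of them dwarf plants overlapped neither relatives nor DMSO plants. Their log2 fold changes without relatives 1 and 2 were 0.75, 0.87, 2.79 and 0.91, with adjusted p values of 0.0674 to 0.316.

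AT2G40955 (chromosome 2, 17092669 to 17095132), which encodes an uncharacterized protein, had no count in any relative. Its counts in dwarf plants 1 to 6 were 14, 26, 29, 70, 37 and 31, a total of 207, and DMSO plants had 2 counts in all. Set against the limit of 3 counts over the group of relatives, the level in dwarf plants was at least 37-fold higher (adjusted p = 0.0131, and 0.141 without relatives 1 and 2). All 6 dwarf plants thus had reads of a transcript that was not detectable in the relatives at this depth.

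Among the lower genes, HB34, a zinc finger homeodomain protein, passed the adjusted p of 0.01 but not the fold threshold. It was at 49.3, 54.8 and 56.8 CPM in dwarf plants and at 91.1, 119, 102 and 107 CPM in relatives, with DMSO plants from 60.5 to 120 CPM (log2 fold change -0.97 ± 0.145, adjusted p = 0.00802). SCL3, a GRAS protein that promotes gibberellin responses, was at 4.43, 5.93 and 6.54 CPM in dwarf plants and at 20.2, 10.5, 12.4 and 12.6 CPM in relatives (-1.31 ± 0.209, adjusted p = 0.0102). HB5, a homeodomain leucine zipper protein, had 36.1, 58.7 and 73.8 CPM in dwarf plants and 140, 104, 144 and 146 CPM in relatives (-1.26 ± 0.215, adjusted p = 0.0131). In these 3 genes the dwarf plants were below every relative, and the log2 fold changes without relatives 1 and 2 were -0.95, -1.15 and -1.36 (adjusted p of 0.0674, 0.0883 and 0.0674). For SCL3 and HB5 they overlapped with DMSO plants, whose medians were 10 and 68.9 CPM.

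AT1G16500, annotated without an established function, had the largest fold change among the 12 lower genes of smallest p. It was at 3.57, 5.32 and 6.01 CPM in dwarf plants, at 28.2, 31.5, 34 and 34.3 CPM in relatives, and at 6.47, 12.6 and 47 CPM in DMSO plants (log2 fold change -2.69 ± 0.431, adjusted p = 0.0102). It was -2.77 without relatives 1 and 2 (adjusted p = 0.0674). Dwarf plants were the lowest of the 19 plants and the relatives were within the DMSO range. Its neighbour SAUR41, a small auxin-responsive gene and the list member of auxin response with the smallest p, was at 8.59, 10 and 14.5 CPM in dwarf plants and 38.8, 27.9, 30.6 and 38 CPM in relatives (-1.69 ± 0.417, adjusted p = 0.0351), with 8.67 to 93.2 CPM in DMSO plants. DESeq2 called SAUR41 with all relatives (adjusted p = 0.00452), and the edgeR value without relatives 1 and 2 was -1.69 (adjusted p = 0.431). The next annotated gene, AT1G16515, had a log2 fold change of -1.84 (adjusted p = 0.0314), while the tested genes on either side of these 3 were between 0.09 and 0.27.

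The called genes themselves did not sit in such runs. Of the 6 nearest tested genes around NRPC1, log2 fold changes were between -0.58 and 0.71, with no adjusted p under 0.0947. Around AT1G54680 they were between -0.66 and 0.37, and around AT1G56300 between -0.40 and 0.32. Around SULTR3;3 and MAF1 the lowest were AT1G23120 at -1.51 (adjusted p = 0.119) and JAZ10 at -7.23 (adjusted p = 0.0353). JAZ10, a jasmonate repressor gene, was at 392 CPM in relative 2 and at 0.316 to 1.29 CPM in the other relatives.

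**Figure D3:**
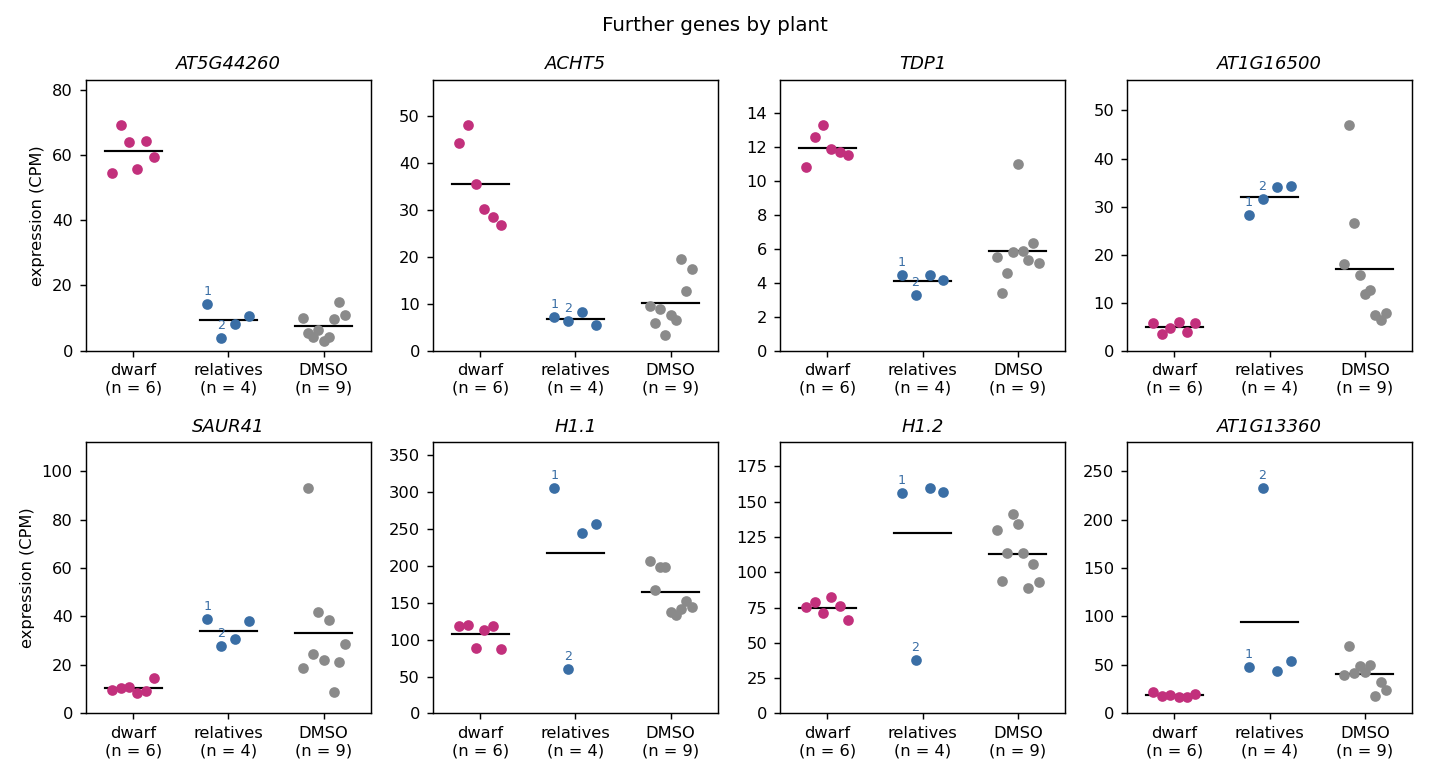
Expression in CPM (linear axes from 0) of 8 genes outside the called set in each dwarf plant, relative and DMSO plant, with a bar at each group mean and the labels 1 and 2 at relatives 1 and 2. The dwarf plants of AT5G44260 start at 54.4 CPM above all other plants, H1.1 and H1.2 are at their lowest in relative 2, and AT1G13360 is at 233 CPM in relative 2.

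The linker histones H1.1 and H1.2, which bind DNA between nucleosomes, depended on 1 plant. H1.1 was at 87.1, 115 and 120 CPM in dwarf plants and at 306, 59.9, 245 and 257 CPM in relatives. H1.2 was at 66.3, 75.8 and 82.2 CPM in dwarf plants and at 156, 37.7, 160.0 and 157 CPM in relatives. Relative 2 was thus below all dwarf plants and the other 3 relatives were above them. DMSO plants had 134 to 206 CPM of H1.1 and 89.1 to 141 CPM of H1.2, also above all dwarf plants. With all relatives the log2 fold changes were -1.02 ± 0.279 and -0.77 ± 0.263, and neither was called (adjusted p = 0.0429 and 0.0775). Without relative 2 both were called lower, at -1.34 and -1.08 with an adjusted p of 0.00103 each. In the fit without relatives 1 and 2 they were at -1.22 ± 0.175 and -1.07 ± 0.156, with an adjusted p of 0.0141 each. H1.3, a linker histone induced by stress, and HMGA, a DNA-bending protein with a linker histone domain, overlapped between the groups (log2 fold changes 0.32 and 0.15).

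The other 7 lower genes of smallest p had their highest value among the relatives in relative 2. AT4G38200, a guanine nucleotide exchange protein of the SEC7 family, was at 39, 40.2 and 42.9 CPM in dwarf plants and at 84.9, 86.4, 55.1 and 51.1 CPM in relatives. AT4G20300 (DUF1639) was at 20.4 to 24.8 CPM in dwarf plants and at 45.8, 47.1, 35.7 and 27.8 CPM in relatives. The auxin response factor gene ARF16 was at 11.3 to 19.3 CPM in dwarf plants and at 40.1, 50.1, 24.2 and 25.1 CPM in relatives. In these 3 genes relatives 1 and 2 were both above relatives 3 and 4. AT1G13360, of unknown function, was at 47.7, 233, 44.1 and 54.2 CPM in relatives and at 17 to 21.6 CPM in dwarf plants. AT1G77500 (DUF630) and the bromodomain genes AT3G60110 and AT2G44430 were likewise highest in relative 2, at 42.8, 36.6 and 58 CPM. The log2 fold changes of these 7 genes lay between -2.37 and -0.79 with all relatives and between -1.39 and -0.39 without relatives 1 and 2, where the lowest adjusted p was 0.167.

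RAV1, a transcription factor that restrains growth, was at 140, 174 and 216 CPM in dwarf plants and at 87.7, 132, 43.3 and 50.3 CPM in relatives (log2 fold change 1.13 ± 0.39, adjusted p = 0.0814). It was 1.89 without relatives 1 and 2 (adjusted p = 0.29). The groups did not overlap, but DMSO plants, at 65.1 to 275 CPM, overlapped with both. AT5G39520 (DUF1997) came from a single plant. Dwarf plant 2 had 5.74 CPM, the other dwarf plants at most 0.263 CPM, and the relatives 0.437, 1.59, 0 and 0 CPM (adjusted p = 0.745).

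Gene lists were described by their counts and medians, with no test. The largest medians with all relatives lay in lists of stress and defence, and they did not hold without relatives 1 and 2. Jasmonate is the wound hormone of plants, and all 19 tested genes of its synthesis and response had a log2 fold change below 0, against 52.7% of all genes. Of the 19, 15 had an unadjusted p below 0.05, against 17.9% of all genes in that direction. None was called by edgeR. DESeq2 called none either, but it gave no adjusted p for JAZ5, and a gene without one counted as not called. The list median was -2.31 with all relatives and 0.17 without relatives 1 and 2, where 11 of 19 were above 0. JAZ5, a repressor of jasmonate responses, was at 1.39 to 6.46 CPM in dwarf plants, at 4.44, 3.03 and 3.54 CPM in relatives 1, 3 and 4 and at 284 CPM in relative 2. The biosynthetic gene LOX3 was at 3040 CPM in relative 2, against 35.9, 21 and 29.1 CPM in the other relatives and 21.2 to 47.7 CPM in dwarf plants.

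Heat shock genes followed the same order. The median of 7 tested members was -2.66 and became 0.36 without relatives 1 and 2. HSFA2, a heat shock transcription factor, was at 52.7 CPM in relative 2 and at 0.245 to 2.6 CPM in the other relatives, with 0.164 to 0.818 CPM in dwarf plants. The list of rapid stress regulators holds transcription factors, kinases and calmodulin-like proteins whose genes respond soon after touch, wounding or cold, and BAP1. It had a median of -0.67 with 7 of 28 genes above 0, and of 0.45 with 21 of 28 above 0 when relatives 1 and 2 were left out. The shares of all genes above 0 were 47.3% and 53.3%. ZAT6, a zinc finger factor of that list, was at 740.0 CPM in relative 2 and at 4.79 to 11.3 CPM in dwarf plants. In the gibberellin list, GA2OX6, which inactivates the hormone, was at 462 CPM in relative 2 and at 0.489 to 1.95 CPM in all dwarf plants and other relatives, and the list median moved from -0.46 to -0.05.

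The defence genes of salicylate stood apart in relative 1 instead. PR1, a marker of salicylate responses, was at 221 CPM in relative 1 and at most 0.256 CPM in the other relatives and the dwarf plants. PR2 was at 993, 243, 17.1 and 20.3 CPM in relatives and PR5 at 527, 9.87, 22.1 and 25.7 CPM, with dwarf medians of 20.4 and 21.3 CPM. DMSO plants reached 61.6 CPM for PR1. The list median was -1.25 with all relatives and 0.34 without relatives 1 and 2. Of its members, WRKY70, a transcription factor that acts between salicylate and jasmonate, was on the other side, with 357, 506 and 561 CPM in dwarf plants and 176, 34.5, 202 and 207 CPM in relatives (log2 fold change 1.61 ± 0.473, adjusted p = 0.0512, and 1.23 with 0.651 without relatives 1 and 2).

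**Figure D4:**
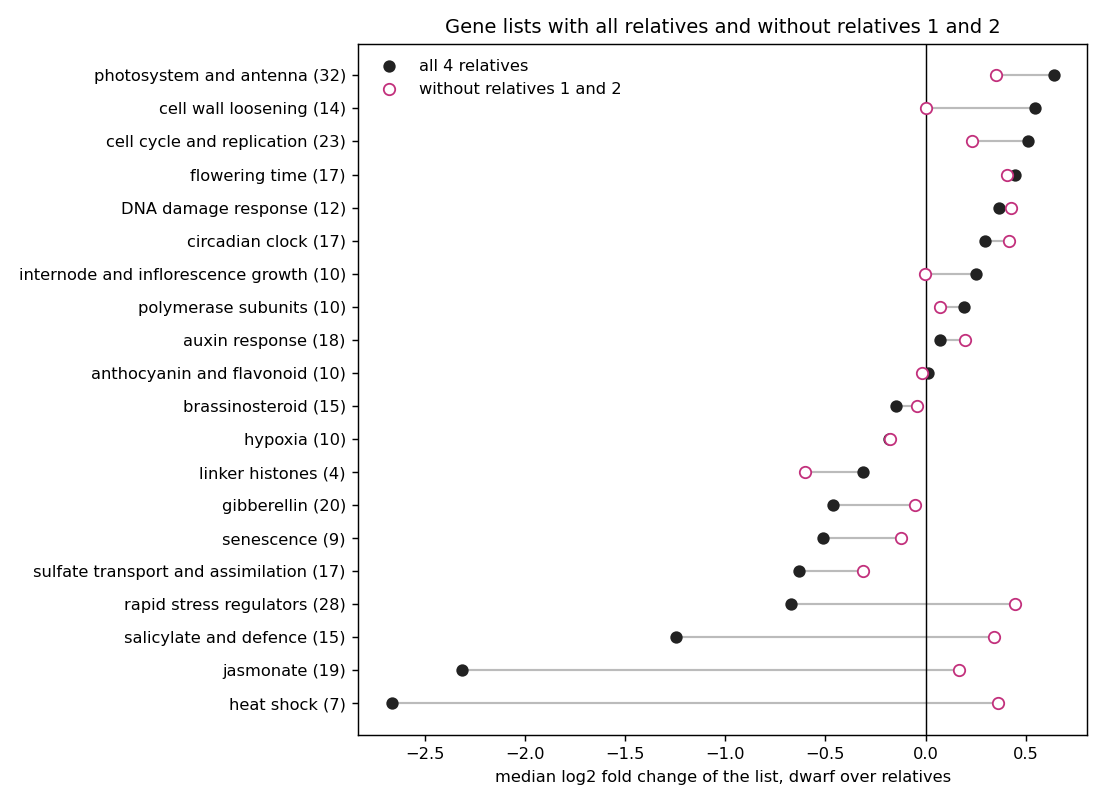
Median log2 fold change of dwarf plants over relatives for 20 gene lists, with the number of tested members in brackets. Filled points use all 4 relatives and open points leave out relatives 1 and 2. The jasmonate list moves from -2.31 to 0.17 and the heat shock list from -2.66 to 0.36, while the photosystem list stays above 0.

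Photosystem and antenna genes kept their direction. All 32 tested members, subunits of both photosystems and their light-harvesting proteins, had a log2 fold change above 0 with all relatives and without relatives 1 and 2, against 47.3% and 53.3% of all genes. By edgeR none was called (0.0258% of all genes), although 15 had p below 0.05 before adjustment (8.65% of all genes in that direction). DESeq2 called 2 with all relatives (1.72% of all genes), LHCB2.1 and LHCB2.2. Without relatives 1 and 2 it called neither (adjusted p = 0.155 and 0.053). By edgeR, 3 members then had an unadjusted p below 0.05, against 7.09% of all genes in either direction. The list median was 0.64 with all relatives and 0.35 without relatives 1 and 2. In 12 members the dwarf plants were above all 4 relatives, as in 4.02% of all genes. LHCB2.1, an antenna protein of photosystem II, was at 143, 174 and 236 CPM in dwarf plants and at 59.3, 53.7, 57.3 and 105 CPM in relatives (log2 fold change 1.37 ± 0.3, adjusted p = 0.0286, and 1.16 with 0.525 without relatives 1 and 2). Its near copy LHCB2.2 was at 138 to 204 CPM in dwarf plants and 30.0 to 86.2 CPM in relatives, and reads of these copies may be shared. LHCB6 was at 1300 to 1860 CPM in dwarf plants and at 849, 317, 926 and 1080 CPM in relatives. DMSO plants had 37.6, 65.7 and 154 CPM of LHCB2.1 and 418, 621 and 1040 CPM of LHCB6, so they reached into the range of the dwarf plants for LHCB2.1 but not for LHCB6.

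The median level of the 32 genes per plant, as log2 CPM relative to the mean of the 19 plants, was 0.314 to 0.883 in dwarf plants, 0.17, -1.21, 0.158 and 0.358 in relatives, and -0.931 to 0.245 in DMSO plants. Relative 4 was within the range of the dwarf plants and relative 2 was the lowest of all. The 5 mesophyll markers, of which LHCB3 is also in this list, moved in the same direction, with a median log2 fold change of 0.53 with all relatives and 0.15 without relatives 1 and 2. Their part in the photosystem result was not tested.

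**Figure D5:**
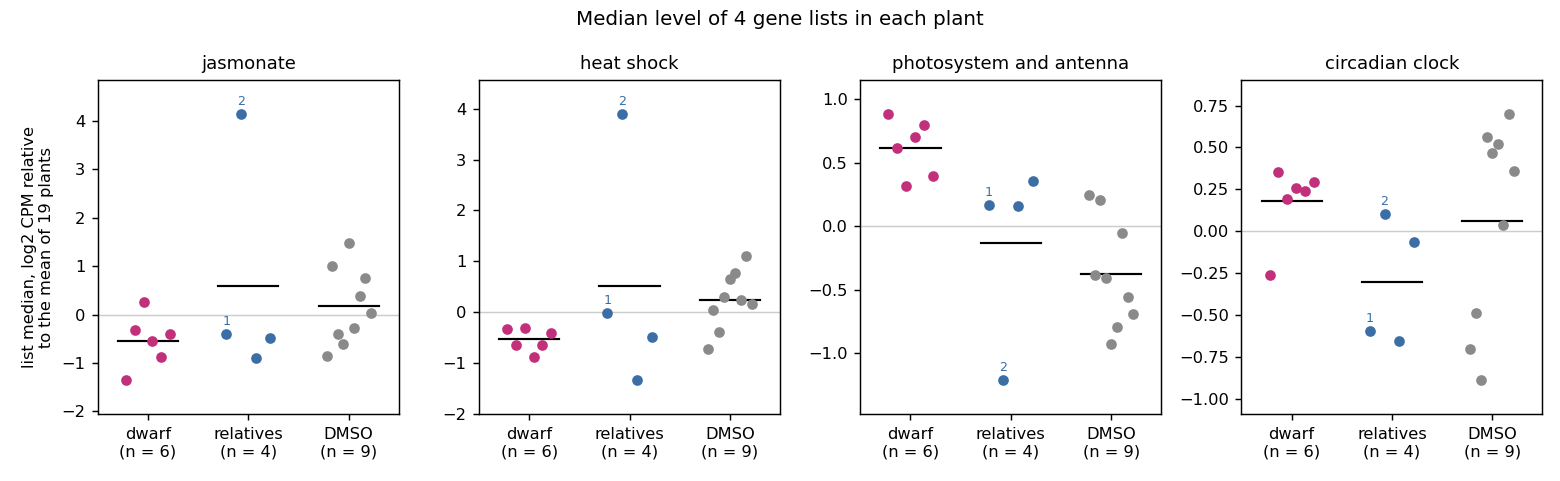
Median over the tested members of 4 gene lists in each plant, as log2 CPM relative to the mean of all 19 plants, with a bar at each group mean and the labels 1 and 2 at relatives 1 and 2. Relative 2 is at 4.14 for jasmonate genes, 3.89 for heat shock genes and -1.21 for photosystem genes. The other 3 relatives lie within the range of the dwarf plants for jasmonate genes. For heat shock genes they lie at -1.33 to -0.0127, against -0.876 to -0.319 in dwarf plants.

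Clock genes were above 0 in 14 of 17 members with all relatives and in the same number without relatives 1 and 2. The shares of all genes were 47.3% and 53.3%, and the list medians were 0.30 and 0.42. Per plant, as log2 CPM relative to the mean of the 19 plants, the groups overlapped. The list median was -0.26 to 0.352 in dwarf plants, -0.654 to 0.0995 in relatives and -0.888 to 0.698 in DMSO plants. ELF4, a part of the evening complex that represses other clock genes at dusk, was at 83.6, 87.5 and 103 CPM in dwarf plants and at 37, 40.8, 36.3 and 48.5 CPM in relatives (log2 fold change 1.13 ± 0.29, adjusted p = 0.0371 by edgeR, and 1.09 with 0.567 without relatives 1 and 2). DESeq2 called ELF4 alone of the list with all relatives (adjusted p = 0.00379), but not without relatives 1 and 2 (0.189). GI, which links the clock to flowering, was at 18.3, 39.3 and 48.9 CPM in dwarf plants and at 13.3, 20.1, 13.9 and 13.4 CPM in relatives (adjusted p = 0.0747). DMSO plants ranged from 40 to 125 CPM for ELF4 and from 7.87 to 36.2 CPM for GI, so dwarf plants overlapped with them in both. The DMSO plants of C13 had 40 to 41.8 CPM of ELF4, and those of C23 and C4_8 71.1 to 125 CPM.

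In the list of flowering time genes 12 of 17 members were above 0 in both comparisons (medians 0.45 and 0.41), against 47.3% and 53.3% of all genes. SPL9, which promotes the change to adult leaves and flowering, had 3.39, 5.49 and 7.85 CPM in dwarf plants and 0.743, 0.45, 2.19 and 3.05 CPM in relatives (log2 fold change 1.72 ± 0.493, adjusted p = 0.0479 by edgeR, and 1.03 with 0.697 without relatives 1 and 2). DESeq2 called SPL9 alone of the list with all relatives (adjusted p = 0.00674), but not without relatives 1 and 2 (0.473). DMSO plants had 1.53, 3.83 and 7.77 CPM of SPL9 as lowest, median and highest, so dwarf plants overlapped with them. The list of cell cycle genes had a median of 0.51 with all relatives and 0.23 without relatives 1 and 2. Its member of smallest p, the mitotic kinase CDKB1;1, overlapped between the groups (adjusted p = 0.113). The DNA damage response list, which etoposide treatment of an ancestor gave reason to include, had medians of 0.36 and 0.42. In it, 8 of 12 members were above 0 in both comparisons, against 47.3% and 53.3% of all genes. GMI1, a damage-induced gene, was at 6.54 to 12.2 CPM in dwarf plants and at 2.25, 9.54, 3.93 and 5.53 CPM in relatives (adjusted p = 0.131).

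Of 13 genes known to act in internode and inflorescence growth, 10 were tested. None was called by edgeR (0.0258% of all genes) or DESeq2 (1.72%), and 1 had an unadjusted p below 0.05 by edgeR (26.5%). ER, a receptor kinase whose loss shortens internodes, was at 26.9, 34 and 40.6 CPM in dwarf plants and at 20.7, 8.28, 27.9 and 19.8 CPM in relatives (log2 fold change 0.81 ± 0.303, adjusted p = 0.102, and 0.51 with 0.806 without relatives 1 and 2). The list median was 0.25 with all relatives and -0.0042 without relatives 1 and 2. KNAT1, a homeobox gene of stem growth, was among the 3 members below the filter, with at most 10 counts in a plant.

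Brassinosteroid genes, whose loss also gives dwarfs, had a median of -0.15 with all relatives and -0.05 without relatives 1 and 2. Of 15 tested, edgeR called none (0.0258% of all genes), while DESeq2 called ROT3 and DWF4 with all relatives (1.72% of all genes). ROT3, a cytochrome P450 of brassinosteroid synthesis, was at 0.192, 0.768 and 1.13 CPM in dwarf plants and at 4.53, 6.75, 2.36 and 1.93 CPM in relatives (-2.43 ± 0.497, adjusted p = 0.0249 by edgeR and 0.00029 by DESeq2). DWF4, which encodes a limiting step of the same pathway, was at 25, 48.4 and 57.2 CPM in dwarf plants and at 15.7, 5.49, 21.3 and 19.4 CPM in relatives (1.47, adjusted p = 0.0475 by edgeR and 0.00913 by DESeq2). These enzymes of 1 pathway thus lay on opposite sides. In both, dwarf plants did not overlap with relatives, as in 4 of the 15 members in all and 7.73% of all genes. Dwarf plants did overlap with DMSO plants, at 0.925 to 5.08 CPM of ROT3 and 7.89 to 26.6 CPM of DWF4. Without relatives 1 and 2, edgeR gave ROT3 and DWF4 at -1.55 and 1.09 (adjusted p = 0.579 and 0.686). DESeq2 called neither there (adjusted p = 0.344 and 0.429).

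Cell wall loosening genes had a median of 0.54 with all relatives and 0.00028 without relatives 1 and 2. TCH4, a xyloglucan-modifying enzyme induced by touch, varied widely among dwarf plants, from 82.7 to 1200 CPM with a median of 515. It was at 47.8, 53.6, 14.1 and 10.6 CPM in relatives (adjusted p = 0.0631 by edgeR and 0.00564 by DESeq2). DESeq2 thus called TCH4 with all relatives, but not without relatives 1 and 2 (adjusted p = 0.0208). DMSO plants ranged from 0.942 to 198 CPM of TCH4 and overlapped with dwarf plants. Senescence genes had a median of -0.51 with all relatives and -0.12 without relatives 1 and 2, and auxin response genes of 0.07 and 0.20. Hypoxia genes were at -0.18 in both, and anthocyanin and flavonoid genes at 0.011 and -0.021. In the lists of this paragraph edgeR called no gene, and DESeq2 called TCH4 and SAUR41 alone, against 1.72% of all genes. The members of smallest p other than TCH4 and SAUR41 were ADH1, which ferments under low oxygen (log2 fold change -0.94), NYC1, which degrades chlorophyll (1.02), and the flavonol synthase gene FLS1 (2.15).

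Both dwarf families were also compared with each other. Between family 34C_6 and family 34C_7, with 3 plants each, edgeR called 0 of 19389 genes (0%), with 295 (1.52%) at an unadjusted p below 0.05. DESeq2 called 1 gene (0.00516%), MAN1, which was at 0.124 CPM in dwarf plant 2 and at 0 in the other 5 dwarf plants. The log2 difference between the families was -0.11 for NRPC1 (p = 0.626), 0.09 for MAF1 (p = 0.667) and -0.21 for SULTR3;3 (p = 0.401), unadjusted values of edgeR's test. Compared with the relatives on its own, family 34C_6 gave 2 calls, NRPC1 and MAF1, and family 34C_7 gave 1, NRPC1.

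DESeq2, the tool of the study, called many more genes than edgeR on the same plants. The study left out 5 libraries and fitted treatment and phenotype, so the counts given here are not its own. With all relatives it called 333 genes (1.72%), of which 89 (0.459%) were higher and 244 (1.26%) lower in dwarf plants, and all 5 genes called by edgeR were among them. Among the 333 were also 3 genes each of the rapid stress and salicylate lists and 1 of the gibberellin list. Among the 244 lower genes, relative 2 had the highest value of the relatives in 190 and relative 1 in 44. Among the 89 higher genes, relative 2 had the lowest value in 51 and relative 1 in 30. Against relatives 3 and 4 alone DESeq2 called 28 genes (0.145%), 18 (0.0934%) higher and 10 (0.0519%) lower, of which 17 had been called with all relatives. The 28 included the 5 genes named above, H1.1, H1.2, AT5G44260, ACHT5, TDP1, AT1G16500, SCL3, HB5 and RAV1, and also AT5G39520, which was above 0.263 CPM only in dwarf plant 2 of the dwarf plants.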

How the data were processed

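Leaf mRNA libraries of 19 plants were used: 6 short-internode dwarf plants, 4 relatives and 9 DMSO plants, grouped by the sample labels. The authors trimmed reads with Trim Galore and estimated transcript abundance with Salmon against Araport11 transcripts with Col-CEN v1.2 decoys. The deposited table holds estimated counts per gene, not normalized, and 0 columns were left without a sample. Values were rounded. The authors' deposited tables of fold changes and p-values were not used. The study left out 5 libraries without naming them.

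Genes that reached 10 normalized counts in 4 or more libraries were tested with edgeR 4.0.16 in R 4.3.3 (quasi-likelihood, TMM, prior count 0.125). The 3 groups had a term each. The standard error restates the test statistic. DESeq2 1.42.0 and limma 3.58.1 were alternatives. DESeq2 gave no adjusted p for some genes, such as JAZ5, GA2OX6, HSFA2 and PR1, and these counted as not called. Plants of a group are single plants of related families, so p-values measure the spread between these plants. Limits of counts of 0 are 3 counts over the group and cover counting error only.

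Named genes were the called genes, up to 12 higher and 12 lower by smallest p, genes drawn by the study for this line, polymerase and linker histone genes, and the member of smallest p of each other list. SAUR41, JAZ10, LOX3, PR2, PR5, WRKY70, LHCB2.2, LHCB6, GI, DWF4, APR3, KNAT1, AT1G16515, AT1G23120 and MAN1 were added after their values were seen. The members and lists were chosen with earlier results of these data known. Of 354 list entries, 346 symbols paired with their identifier in RefSeq. Coordinates and symbols are those of RefSeq on TAIR10.1, which held 27391 of 27501 identifiers.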

Additional observations from a re-analysis of the deposited data

Results flagged for a closer look

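In 152 sets of values, those of each named gene and each gene list in the 6 dwarf plants or the 4 relatives, 1 plant was tested for standing far from the rest of its group, and 23 were flagged. The limits used would flag about 1 in 20 sets of independent, normally spread values. These sets share their plants, and many genes were named for a small p, so the number flagged cannot be judged by that share. Relative 2 accounted for 14 of them, dwarf plant 1 for 3, relative 1 for 2, and dwarf plants 2, 4 and 6 and relative 4 for 1 each.

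Relative 2 was far above the other relatives for AT3G60110 (36.6 CPM), AT1G13360 (233 CPM), NRPA2 (46.9 CPM), GA2OX6 (462 CPM), ZAT6 (740.0 CPM), JAZ5 (284 CPM) and HSFA2 (52.7 CPM). It was far below them for HB5 (104 CPM), NRPE1 (3.72 CPM) and H1.2 (37.7 CPM). For lists, the median of relative 2 in log2 CPM relative to the mean of the 19 plants was 4.14 for jasmonate, -0.98 for linker histones, -1.21 for photosystem and antenna and -1.20 for the DNA damage response.

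Relative 1 was far above the other relatives for PR1 (221 CPM) and NRPB1 (250.0 CPM), and relative 4 for LHCB2.1 (105 CPM). Dwarf plant 1 was far below the other dwarf plants for NRPA2 (20.6 CPM, others 34.2 to 39.1) and in the medians of the polymerase list (-0.25) and the clock list (-0.26). Dwarf plant 4 had 1.63 CPM of AT2G40955, dwarf plant 2 had 5.74 CPM of AT5G39520, and dwarf plant 6 had 1.44 CPM of SULTR3;5, each far above the other dwarf plants. What sets these plants apart was not tested.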

How the results depend on the processing

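With all relatives edgeR called 5 genes. The count was 1 without relatives 1 and 2, 11 without DMSO plants, 333 with DESeq2, 28 with DESeq2 without relatives 1 and 2, 43 against relatives and DMSO plants pooled, 2 with dwarf family 34C_6 and 1 with family 34C_7, and 1099 at an adjusted p below 0.05 with no minimum fold. It was 5 to 7 with limma-voom, robust estimation, RLE size factors and no gene filter. Without relatives 1 and 2, further removal of DMSO plant 2 gave 5 calls (NRPC1, SULTR3;3, MAF1, H1.2 and AT1G16500) and DESeq2 28. Leaving out each plant in turn gave 2 to 25, with 25 without DMSO plant 2, 23 without relative 4, 8 without relative 2 or DMSO plant 7, 2 without relative 1, and 3 without dwarf plant 1, 3 or 5. Between the dwarf families DESeq2 called 1 gene. With the replicate number as a block there were 2 calls, NRPC1 and ACHT5, and MAF1 was not called. The number is only a name here, since deviations of same-numbered plants correlated at 0.22, 0.29, -0.23 and 0.22. No called gene changed direction. Across single named genes, 1673 of 1845 alternative values kept direction and side of the threshold. Most named genes were not called in the main fit, so for them this meant staying uncalled. Of 33 alternatives, the call held in 33 for NRPC1, 30 for MAF1, 26 for AT1G54680, 25 for SULTR3;3 and 18 for AT1G56300.

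Without relatives 1 and 2 the list medians were -0.054 for gibberellin, 0.45 for rapid stress regulators, 0.17 for jasmonate, 0.34 for salicylate and defence, and 0.36 for heat shock. With each plant of the line left out they ranged from -0.52 to -0.25 for gibberellin, -0.056 to 0.33 for auxin response, -0.91 to 0.26 for rapid stress regulators, -2.78 to 0.023 for jasmonate, -1.54 to 0.38 for salicylate, -3.01 to 0.020 for heat shock, 0.33 to 0.51 for flowering time and -0.16 to 0.36 for anthocyanin. The upper ends came without relative 2 for gibberellin, rapid stress regulators, jasmonate and heat shock, without relative 1 for salicylate and auxin response and without relative 3 for anthocyanin, and the lower end for flowering time came without relative 1. The cause of these shifts was not tested.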

Other observations

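The called genes were also read in the 47 other plants of the series, with all 53 libraries scaled together. NRPC1 ranged from 5.55 to 18.9 CPM in those 47 plants, against 42.4 to 51.9 CPM in short-internode dwarf plants, and MAF1 from 9.41 to 33.3 CPM against 44.1 to 61.2 CPM. None of the 47 plants fell within the range of the dwarf plants for either gene. In the 6 BR-like dwarf plants of the series NRPC1 was at 7.76 to 12.7 CPM and MAF1 at 20.3 to 29.3 CPM. AT1G54680 ranged from 1.74 to 12.1 CPM in the 47 plants, and the 1 white plant of the variegated line, at 12.1 CPM, was above every short-internode dwarf plant (6.07 to 8.34 CPM). For SULTR3;3 and AT1G56300, 9 of the 47 plants each were within the range of the dwarf plants. The 6 virescent plants had 18.5 to 45 CPM of SULTR3;3 and 68.6 to 93.3 CPM of AT1G56300, and the BR-like dwarf plants 25.3 to 49.1 CPM and 47.1 to 60.3 CPM. AT2G40955, which was not called, was at 1.19 CPM in the same white plant and at most 0.091 CPM in the other 46. These are values with no test.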
